A study of Mus musculus with 12 samples.

Results

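Pericellular proteolysis is the cutting of matrix and cell surface proteins in the space around a cell. The genes described here are 3 of its enzymes, Mmp14, Mmp11 and Fap, and 2 secreted proteins of the inhibitor families, Timp1 and Serpinf1. They were chosen by name, with earlier results of these data known. All 5 are among the 658 genes of the table and among the 512 genes abundant enough to be tested. The study asked how α-asarone, a phenylpropanoid of Acorus plants, alters transcription in mouse cultures that are being turned toward bone. The cultures are labelled BMSCs, bone marrow mesenchymal stem cells, a name for the plastic-adherent stromal cells of marrow. They also held leukocyte transcripts, given below. All cells were wild type, and the bone-inducing medium of both groups held ascorbic acid at 50 µM, β-glycerophosphate at 10 mM and dexamethasone at 100 nM. For both groups the sample records also give fetal bovine serum at 15% and penicillin-streptomycin at 1%. In 6 libraries the cultures also received the agent, which the labels spell α-Asaronel, and in 6 control libraries they did not. The sources used here give neither the age, sex and number of the mice nor the dose and duration of exposure. Libraries carry the numbers 1 to 6 in each group, and no label ties a number to its own mouse or dish. The p-values therefore set a difference between groups only against the scatter between libraries, which may be technical.

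Mmp14 encodes a metalloprotease anchored in the cell membrane that cleaves fibrillar collagen and activates the secreted pro-enzyme of another metalloprotease, and mice without it have severe bone and connective tissue defects. Mmp11, or stromelysin 3, is a secreted metalloprotease of stromal cells that is activated inside the cell by furin and cleaves interstitial collagen poorly. Fap encodes fibroblast activation protein, a membrane serine protease that cuts after proline and marks activated fibroblasts and marrow stroma. Timp1 encodes a secreted inhibitor that binds the active site of most soluble metalloproteases and is a poor inhibitor of the membrane enzyme MMP14. Serpinf1 encodes PEDF, a secreted serpin that does not inhibit proteases, binds collagen, and is lacking in a recessive form of brittle bone disease.

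None of the 5 genes differed between α-asarone and control cultures beyond the spread between libraries. With edgeR's quasi-likelihood test 0 of 5 were called, against 30.3% of the genes tested (155 of 512, at an adjusted p under 0.05). The same count was 0 with DESeq2 and 0 with limma, and 0 of the 5 had an unadjusted p under 0.05 with any of the 3 tools. The fitted differences ranged from a log2 fold change of −0.15 for Mmp11 to 0.04 for Fap, and the median absolute difference over all tested genes was 0.08 on that scale. The values of the groups overlapped for all 5 genes, while 14.3% of tested genes had no overlap. With only 5 genes, neither count can be told apart from the share over all tested genes. A p above the threshold does not show that the levels were equal, so the 95% confidence interval of each difference is given with it.

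The 5 genes spanned a wide range of levels and kept 1 order in all 12 libraries. On the TPM scale, which corrects for transcript length, Serpinf1 was highest, followed by Timp1, Mmp14, Fap and Mmp11. The lowest Serpinf1 value in any library (993 TPM) lay above the highest Timp1 value (874 TPM), and the lowest Timp1 value (680 TPM) lay above the highest Mmp14 value (373 TPM). Mmp14 was at least 7.22 times as abundant as Fap in every library, and Fap at least 2.84 times as abundant as Mmp11. Among the 512 tested genes Serpinf1 ranked 3, Timp1 ranked 6, Mmp14 ranked 17, Fap ranked 205 and Mmp11 ranked 390 by mean TPM. The 2 genes of the inhibitor families were thus the most abundant of the set in every library. Summed over the 5 genes, the level was 2399 ± 117 TPM with α-asarone and 2384 ± 56.1 TPM without (SD, n = 6 each).

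**Figure D1:**
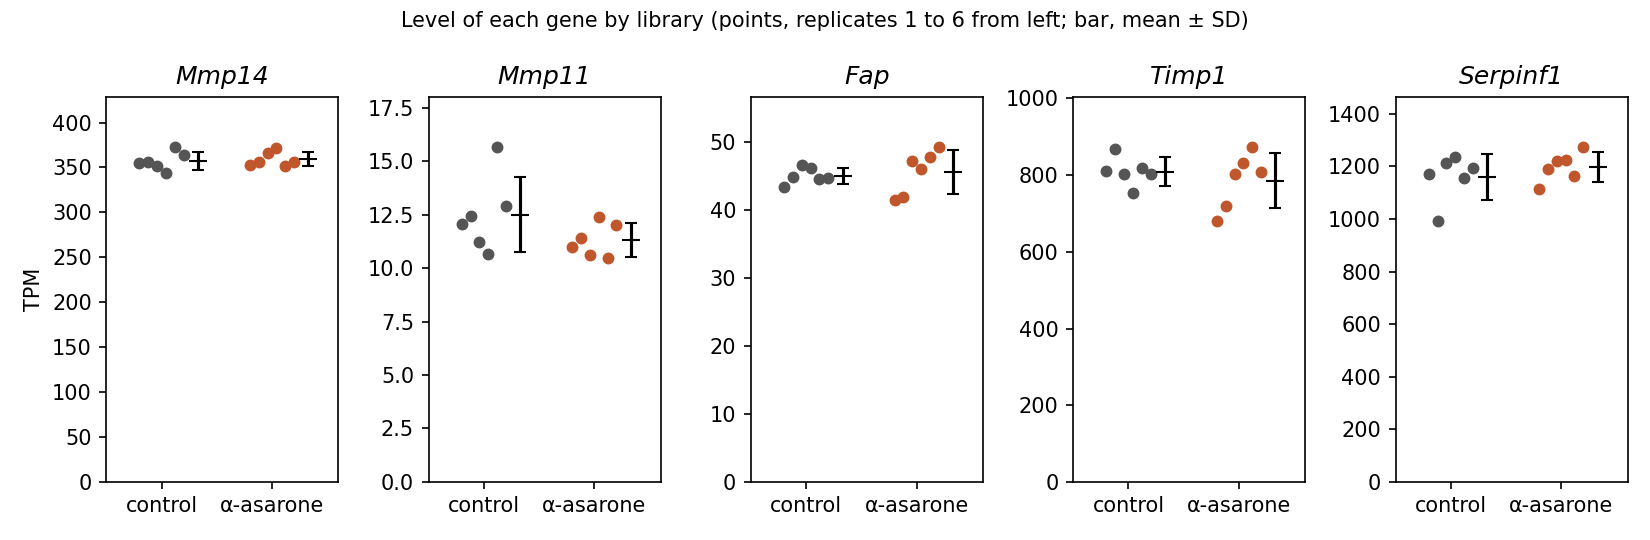
TPM of the 5 genes in each library, on linear axes that start at 0, with control libraries in grey and α-asarone libraries in orange; points run from replicate 1 at the left to replicate 6, and bars give the mean ± SD of 6 libraries. The groups overlap in every panel, and the highest Mmp11 value, 15.7 TPM, and the lowest Serpinf1 value, 993 TPM, are both from control libraries.

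Sequences at the start sites are shown for the 2 metalloprotease genes and the metalloprotease inhibitor Timp1, because the design points to factors that could be looked for there: the series title names PPARG, the medium of both groups held dexamethasone, a ligand of the glucocorticoid receptor, and AP-1 sites are known from the promoters of metalloproteases and of Timp1. RefSeq start-site windows (GRCm38.p6, 250 bases before and 50 after the start) were found for 4 of the 5 genes, all but Fap. The 100 bases before the start are printed 5′ to 3′ on the gene's strand, with GGGCGG (the GC box) and CCAAT, each on either strand, in capitals. In Mmp14 a CCAAT match and a GC box share 1 base. For Mmp11 the window lies inside the annotated gene, whose minus-strand span begins at 75936496, and so describes an internal start. In each printed gene the end of the window is in 1 GENCODE transcript.
Mmp14, chr14:54431498-54431597, plus strand: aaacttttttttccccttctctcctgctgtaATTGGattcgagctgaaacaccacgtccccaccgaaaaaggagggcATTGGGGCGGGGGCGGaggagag
Mmp11, chr10:75932503-75932602, minus strand: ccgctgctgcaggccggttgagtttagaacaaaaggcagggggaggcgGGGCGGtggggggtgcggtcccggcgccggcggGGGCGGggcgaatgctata
Timp1, chrX:20870066-20870165, plus strand: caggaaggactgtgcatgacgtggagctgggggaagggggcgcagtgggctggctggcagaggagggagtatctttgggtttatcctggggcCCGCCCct

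The whole windows held 2 GC boxes in Mmp14, 4 in Mmp11, 1 in Timp1 and none in Serpinf1, and 35.6% of all 32817 start-site windows hold at least 1. CCAAT was found 2 times in Mmp14, 1 time in Timp1 and 3 times in Serpinf1, against 37.4% of windows with a match. None of the 4 windows held TATAAA, which 13.6% of windows hold. The AP-1 form TGAGTCA was in none of the 4 (5.20% of windows), and the form TGAGTAA was in Timp1 alone (2.68% of windows). It lies just after the start and is in capitals in this stretch.
Timp1, chrX:20870181-20870210, plus strand: cggtgggtggaTGAGTAAtgcgtccaggaa

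The PPAR response element, a direct repeat spaced by 1 base, was in none of the 4 windows and in 0.0396% of all windows. The full palindromic glucocorticoid response element was in none of the 4 and in 0.00914% of all windows, and its half-site AGAACA was in Mmp11 alone (19.0% of windows). These matches describe letters in a short window on either strand and are not evidence of binding.

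Mmp14 (ENSMUSG00000000957, GRCm38 chromosome 14, 54431612 to 54445364, plus strand), the membrane collagenase, varied little in either group. With α-asarone its lowest, median and highest values were 352, 356 and 371 TPM, and in controls they were 344, 356 and 373 TPM. Every α-asarone library lay inside the range of the controls. Mean levels were 359 ± 8.01 TPM under α-asarone against 357 ± 10.1 TPM without it (SD, n = 6 each). By edgeR the log2 fold change of 0.01 ± 0.02 SE had an adjusted p of 0.86 and a 95% confidence interval of −2.91% to 3.99% in level. An exact permutation test (2-sided) of log2(TPM + 1) gave p = 0.706. The coefficient of variation was 2.23% and 2.82% in the 2 groups, against medians of 6.07% and 6.10% over all tested genes. The interval for Mmp14 is the narrowest of the 5, and its SE was 0.024 against a median of 0.045 over all tested genes, at a mean count of 8106 per library.

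Mmp11 (ENSMUSG00000000901, chromosome 10, 75923222 to 75936496, minus strand), the furin-activated stromal enzyme, had the largest difference of the 5 and the lowest level. Its lowest, median and highest values were 10.5, 11.2 and 12.4 TPM with α-asarone and 10.7, 12.3 and 15.7 TPM in controls. All 6 α-asarone libraries lay below the control mean, 2 of them below every control, and the control with 15.7 TPM stood above all other libraries. Treated libraries averaged 11.3 ± 0.781 TPM and controls 12.5 ± 1.75 TPM (SD, n = 6 each). This is a log2 fold change of −0.15 ± 0.08 SE by edgeR, whose p was 0.0696 before and 0.164 after adjustment. Its interval reached from −19.7% to 0.904%, and the exact permutation test gave p = 0.147. Without control replicate 5, the highest one, the log2 fold change was −0.07 (adjusted p = 0.487), and without control replicate 4, the lowest control, it was −0.19 (adjusted p = 0.0735). With 227 counts per library on average, Mmp11 rests on the fewest counts of the set. Chchd10 overlaps it on the opposite strand, where 1 exon of an Mmp11 coding transcript meets one of its exons, and the sources used here do not say whether the libraries kept strand.

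Fap (ENSMUSG00000000392, chromosome 2, 62500943 to 62574075, minus strand), the proline-cutting protease of activated fibroblasts, had similar means and an uneven spread. With α-asarone it had 41.5 TPM at the lowest, 46.6 TPM at the median and 49.3 TPM at the highest. In controls these values were 43.4, 44.8 and 46.6 TPM. Of the α-asarone libraries, 2 lay below every control, 3 above every control and 1 between. Average levels were 45.6 ± 3.25 TPM and 45.05 ± 1.19 TPM in treated and control libraries (SD, n = 6 each). edgeR estimated a log2 fold change of 0.04 ± 0.04 SE (adjusted p = 0.407; interval −2.39% to 8.84%). By the exact permutation test p was 0.719. Without α-asarone replicate 5 the log2 fold change was 0.015 (edgeR adjusted p = 0.786). Scaled by table totals alone, without TMM factors, the value was 0.09 (unadjusted p = 0.0344, adjusted p = 0.080), a setting under which the median of all tested genes was 0.04 in place of 0.0007.

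Timp1 (ENSMUSG00000001131, chromosome X, 20870166 to 20874735, plus strand), the metalloprotease inhibitor, varied more among α-asarone libraries than among controls. With α-asarone it ranged from 680 TPM to 874 TPM with a median of 805 TPM. In controls it ranged from 752 TPM to 868 TPM with a median of 807 TPM. Replicates 1 and 2 of the α-asarone group, at 680 and 720 TPM, lay below every control, and replicate 5 lay above every control. On average treated libraries had 786 ± 72.1 TPM where controls had 809 ± 37.1 TPM (SD, n = 6 each). The difference on the log2 scale, −0.04 ± 0.04 SE, had an edgeR adjusted p of 0.50 and an interval of −8.68% to 3.46%. Exact permutation of the libraries gave p = 0.461. Without α-asarone replicate 1 the log2 fold change was 0.0018 (adjusted p = 0.969). The gene lies inside Syn1 on the opposite strand, and no exon of its coding transcripts meets a Syn1 exon.

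Serpinf1 (ENSMUSG00000000753, chromosome 11, 75409769 to 75422701, minus strand), the collagen-binding serpin of bone, was the most abundant of the 5. Its lowest, median and highest values were 1113, 1205 and 1274 TPM with α-asarone and 993, 1182 and 1237 TPM in controls. The groups overlapped in all but 2 libraries, with 1 α-asarone library above every control and control replicate 2 below all other libraries. In TPM the averages were 1197 ± 55.6 under treatment and 1160 ± 87.3 without (SD, n = 6 each; exact permutation p = 0.463). By counts edgeR found a log2 fold change of 0.0006 ± 0.03 SE, with adjusted p = 0.997 and an interval of −4.37% to 4.66%. Without control replicate 2 the log2 fold change was −0.03 (adjusted p = 0.484).

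**Figure D2:**
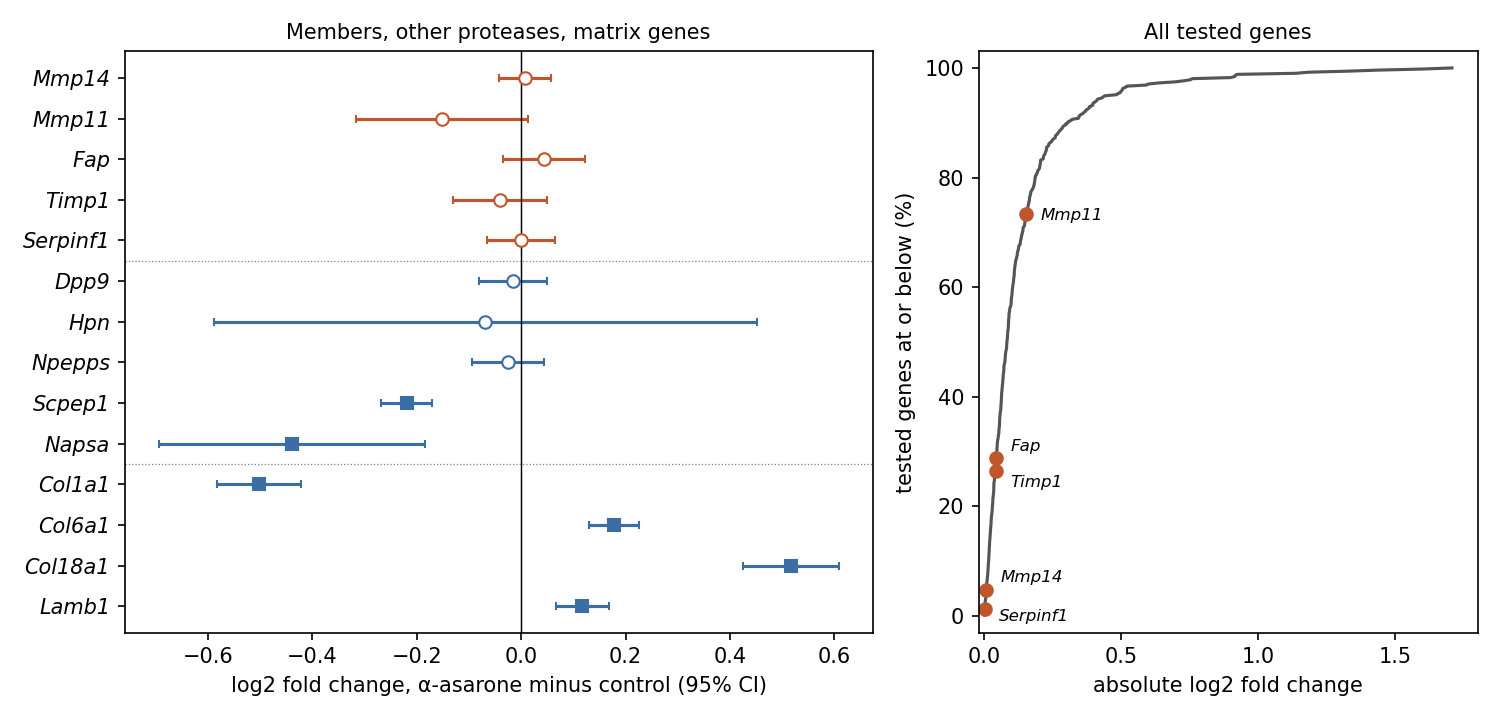
Left, log2 fold change (α-asarone minus control) with its 95% confidence interval from the edgeR fit for the 5 genes (orange), other proteases and matrix genes of the table (blue); filled squares were called and open circles were not. Right, the cumulative share of the 512 tested genes by absolute log2 fold change, with the 5 genes marked; 73.2% of tested genes had a smaller absolute change than Mmp11, which is the farthest along of the 5.

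Because an estimated count divided by TPM carries the effective transcript length that the quantifier assigned, this quotient gives a second readout for each gene. It is computed from the same counts and TPM as the level, and so is not independent of them. Each library was centred on its median gene, so a value of 1 is the length of the median gene. Timp1, the shortest transcript of the set, had a relative length of 0.341 in both groups and varied by 2.06% from its lowest to its highest library, and Mmp14 at 1.03 varied by 1.86%. Serpinf1, Mmp11 and Fap varied by 13.0%, 14.6% and 15.2%, against a median of 4.11% over the 450 genes with a mean count of at least 100. GENCODE lists 2 transcripts for Timp1, 6 for Mmp11, 7 for Mmp14, 8 for Serpinf1 and 9 for Fap.

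None of the 5 passed the test for a difference in relative length. With limma 0 of 450 genes passed (0%), and 17 of the 450 but 0 of the 5 had an unadjusted p under 0.05. For Serpinf1 the log2 difference was −0.05 ± 0.02 (SE, limma unadjusted p = 0.0637, adjusted p = 0.986), from a mean relative length of 0.488 in controls to 0.472 with α-asarone. Without control replicate 2 it was −0.03 (limma adjusted p = 0.98). As the quotient is count over TPM, the difference over all libraries follows by arithmetic from the levels. The log2 TPM values of Serpinf1 differed by 0.05, which the counts did not show. The relative length of Serpinf1 lay between 0.460 and 0.478 with α-asarone and between 0.467 and 0.519 in controls. The estimated counts of all 5 genes were whole in all 12 libraries.

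The ratio of Mmp14 to Timp1, an enzyme and an inhibitor, does not depend on how libraries are scaled. The ratio of their TPM values ran from 0.403 to 0.518 with α-asarone and from 0.410 to 0.457 in controls. Replicates 1 and 2 of the α-asarone group had the 2 highest ratios, 0.518 and 0.494, and replicate 5 had the lowest of all libraries. Its average was 0.460 ± 0.0411 with the agent and 0.442 ± 0.0178 without (SD, n = 6 each). The difference of 0.05 on the log2 scale did not exceed the spread between libraries (exact 2-sided permutation p = 0.385, where the smallest p that 6 against 6 libraries allow is 0.00216). It was 0.019 without α-asarone replicate 1, 0.033 without α-asarone replicate 2 and likewise without control replicate 2, and 0.092 without α-asarone replicate 5.

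**Figure D3:**
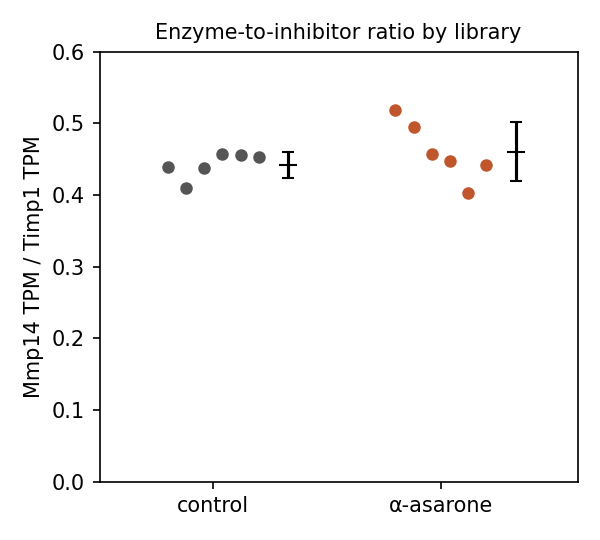
Mmp14 TPM divided by Timp1 TPM in each library, with control libraries in grey and α-asarone libraries in orange, replicate 1 to 6 from the left, and bars for the mean ± SD of 6 libraries. Controls lie between 0.410 and 0.457, inside the α-asarone range of 0.403 to 0.518.

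Within groups, the libraries that were low for one gene were partly those that were low for another. In α-asarone replicate 1 all 5 genes were below their group mean, Timp1 at −13.4%, Fap at −9.14%, Serpinf1 at −7.03%, Mmp11 at −2.98% and Mmp14 at −1.78%. All genes of the table together also held the lowest share of TPM there, 5.36% against 5.49% to 5.61% in the rest of its group. How many of all tested genes were below their group mean in this library was not computed. In replicate 2 of that group Timp1 was at −8.39% and Fap at −8.23%, while Serpinf1 was at −0.483%. These 2 libraries had the highest sums of estimated counts over the genes of the table in their group, 1224256 and 1129026. Such sums are not library depths, and their part in these values was not tested. Among controls, replicate 2 was at −14.5% for Serpinf1 and 7.27% for Timp1, and replicate 5 was at 25.5% for Mmp11 and 4.42% for Mmp14.

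For each gene the 2 tested genes with the most similar profile over the 12 libraries were found by the root mean square difference of z-scored log2(TPM + 1), where 0 is an identical profile and the medians over 511 genes were 1.28 to 1.41. Apoe, the gene of the lipid carrier apolipoprotein E, was the nearest of all to Serpinf1 (0.530) and to Fap (0.771), and Timp1 was the next nearest to Fap (0.826). Apoe was lowest in control replicate 2 (17338 TPM) and α-asarone replicate 1 (17449 TPM), as was Serpinf1. The nearest to Mmp14 were Pxmp4 (0.425) and the casein kinase gene Csnk1g2 (0.727), to Mmp11 Rmnd5b (0.611) and the kinase gene Akt1 (0.630), and to Timp1 Tmem143 (0.767) and the small GTPase gene Rhoc (0.770). Pemt (0.767) was the other neighbour of Serpinf1. None of these neighbours was called between the groups, beside 30.3% of all tested genes. The profiles were matched over all 12 libraries, group difference included, so uncalled neighbours of uncalled genes are no separate result.

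**Figure D4:**
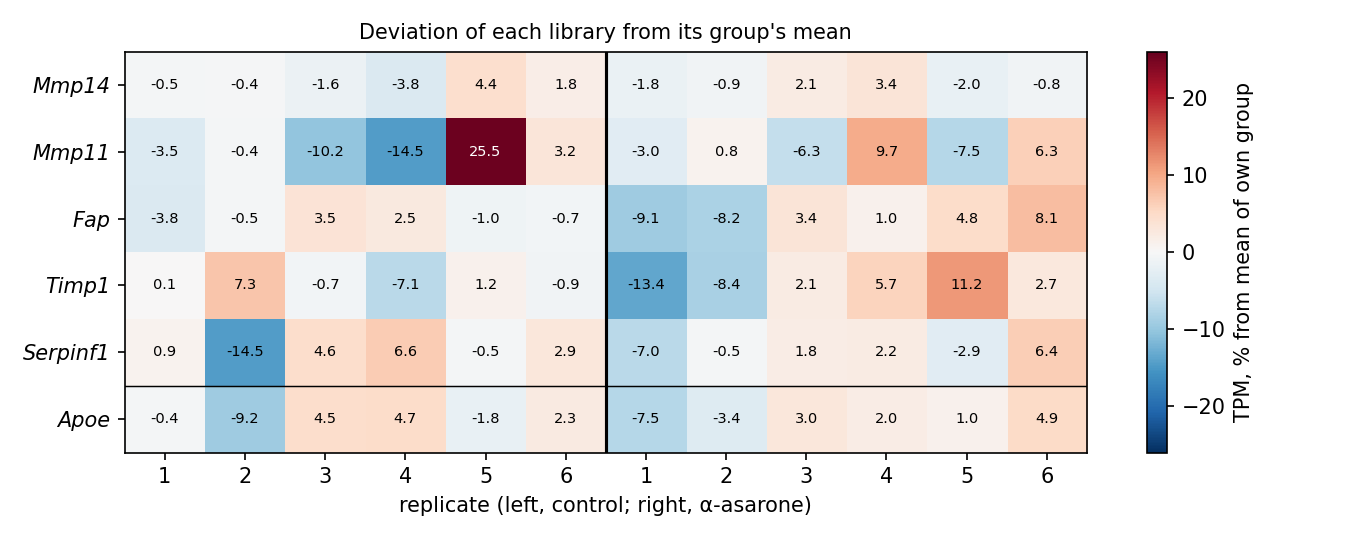
Percent by which the TPM of each gene in each library lies above (red) or below (blue) the mean of its own group, with controls to the left of the vertical line and Apoe in the last row for comparison. Timp1 and Fap are both low in α-asarone replicates 1 and 2, and Serpinf1 and Apoe are both low in control replicate 2.

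Other proteases were few in the table, which covers 5.36% to 5.67% of a library's TPM. The rest of the TPM lies in genes that the table lacks, so a gene absent from the table may well be expressed. From lists of matrix metalloproteases (2 of 23 genes in the table), metalloprotease inhibitors (1 of 7) and serpins (1 of 33) it held only the genes described above, and it held none of the listed ADAM and astacin proteases, other protease inhibitors or protease receptors. Of the other pericellular serine proteases, Dpp9, a cytosolic relative of Fap, had 47.5 ± 1.09 TPM under α-asarone against 48.2 ± 2.21 TPM without it (SD, n = 6 each). The membrane protease gene Hpn had 1.30 ± 0.645 against 1.32 ± 0.522 TPM, and neither gene was called. Npepps, a puromycin-sensitive aminopeptidase gene, was not called either, at 58.1 ± 4.15 TPM against 58.3 ± 0.933 TPM.

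Both lysosomal protease genes of the table fell. Scpep1, a serine carboxypeptidase gene, had 342 ± 7.18 TPM in controls and 293 ± 9.38 TPM under α-asarone (SD, n = 6 each), a log2 fold change of −0.22 ± 0.02 SE (edgeR adjusted p = 1.09e-08). Napsa, the gene of the aspartic protease napsin A, had 5.97 ± 0.94 TPM in controls against 4.40 ± 0.435 TPM, a log2 fold change of −0.44 with an edgeR adjusted p of 0.0074. With the deposited annotation, 45 genes carry a term on peptidase activity or proteolysis, regulators included; of 30 tested ones outside the set 4 rose and 4 fell, with a median log2 fold change of −0.02 beside 0.0007 over all tested genes. Among them Wnt9a (log2 fold change 0.52) and Nr1h3 (0.50) rose and Klf4 (−0.31) fell, none of which is itself a protease. When the search was narrowed to peptidase activity among the annotated functions, 0 of 14 tested genes rose and 3 fell, beside 12.9% and 17.4% of all tested genes. These were Scpep1, Napsa and Ncstn, a γ-secretase subunit gene whose call (log2 fold change −0.07, edgeR adjusted p = 0.036) was lost with median-ratio scaling, table totals, limma and without the filter. It was also lost without α-asarone replicate 3, 4, 5 or 6 and without control replicate 1, 2 or 5 (edgeR adjusted p 0.0565 to 0.0988). The calpain subunit gene Capns1 was not called, with 497 TPM in controls against 488 TPM. Of 5 genes annotated as protease inhibitors 3 were tested. The 1 outside the set, Rps6ka1, is a kinase gene and not itself such an inhibitor. It was not called (log2 fold change −0.08, edgeR adjusted p = 0.073). It was called without α-asarone replicate 4 (edgeR adjusted p = 0.029) and without control replicate 4 (0.0391).

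Of a list of 43 matrix genes, the kind of protein these enzymes cut, the table held 4, all of which were tested. Of these 3 rose, Col18a1 (log2 fold change 0.52), Col6a1 (0.18) and Lamb1 (0.12), and Col1a1, the gene of the main chain of bone collagen, fell (−0.50), all with edgeR adjusted p values of at most 5.3e-04, beside 12.9% higher and 17.4% lower among all tested genes. The median log2 fold change of the 4 was 0.15 beside 0.0007 over all tested genes, and so few genes say little about the list. The enzymes and inhibitors above and these matrix genes come from the same fit, and no test of the difference between the 2 sets was made.

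The table holds few markers by which to check the cultures. Calls among them stand beside 12.9% higher and 17.4% lower among all tested genes. Of 18 osteoblast and stromal markers 2 were tested, Col1a1 and Dlx3 (1.97 TPM under α-asarone, 1.65 TPM without). Of 19 leukocyte markers 5 were tested, with Cfp and Spi1 higher, Itgb2 and Cd52 lower and Clec10a not called. The call of Itgb2 was lost with table totals (edgeR adjusted p = 0.051). Their summed level was 1047 to 1198 TPM with α-asarone and 926 to 1042 TPM in controls. Cfp made up 469 and 332 TPM of it on average. Itgb2 (273 and 293 TPM) and Spi1 (163 and 143 TPM) were well expressed in both groups, so leukocyte transcripts were present in the cultures. Which cells they came from was not tested. The lymphocyte genes Cd3g and Vpreb3 were at 0 in every library, and Cd79a reached 0.016 ± 0.040 TPM in controls. The osteoclast gene Acp5 was at 25.1 to 38.4 TPM with α-asarone and 57.9 to 78.4 TPM in controls. Of 4 adipocyte genes tested Plin4, Lipe and Cd36 rose and Pparg was not called. Their summed level was 393 to 507 TPM against 349 to 406 TPM, of which Cd36 made up 366 and 308 TPM on average. Ramp2 of the endothelial list rose, and Vwf and Esam were below 1 TPM on average in both groups. Cnn1 of the contractile list fell. In bulk RNA fewer cells of a type and less RNA per cell cannot be told apart, and the part of cell makeup in the levels of the 5 genes was not tested. Table totals ran from 843595 to 1224256 estimated counts per library.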

How the data were processed

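Per the file headers, the authors' single deposited table lists TPM (transcripts per fixed library total) and estimated counts. The submitters' processing notes name GRCm38 and mm10, and no aligner or quantifier is given in the sources used here. TPM of the 658 genes summed to 5.36% to 5.67% of a library, so count totals are not depths. The last row of the table as read here ends inside its annotation text, so it may be part of a longer one. A gene it lacks may still be expressed, and ranks and shares cover its genes alone. Rounded estimated counts went through edgeR's quasi-likelihood test (edgeR 4.0.16, R 4.3.3; TMM factors 0.976 to 1.03; no covariate). Tested were the 512 genes reaching 1 TPM in 6 or more libraries, and calls needed an adjusted p (Benjamini-Hochberg, over all of them) under 0.05. The fit was tested on simulated data. Single values had exact permutation tests over 924 arrangements of libraries. Deposited count over TPM was compared with limma 3.58.1 for genes averaging 100 counts or more. DESeq2 1.42.0 and limma were alternatives. Members, lists and tests were chosen with earlier results of these data known. Named are all members, up to 4 genes per list (called ones first by size of change, then by TPM) and the 2 nearest in pattern to each member. Clec10a, Cd79a, Cd3g and Vpreb3, and the narrower annotation search with Ncstn and Capns1, were chosen after their values were seen. Gene coordinates are from GENCODE M21 (GRCm38).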

Additional observations from a re-analysis of the deposited data

Results flagged for a closer look

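The highest and lowest values were compared with their nearest neighbours in 14 sets of 6 libraries, which were the TPM of each of the 5 genes, the Mmp14 to Timp1 ratio and the table total in both groups. By Dixon's test for 6 values 2 of the 14 sets held an isolated value, where chance marks about 1 in every 20 sets checked. The sets are not independent, as the ratio is made from 2 of the genes. Both isolated values belong to control replicate 2. Its Serpinf1 level was 993 TPM, below a range of 1154 to 1237 TPM in the remaining controls. Its table total was 843595 estimated counts, below a range of 1068547 to 1173845. When this library was left out, none of the 5 genes was called with edgeR, and Serpinf1 had a log2 fold change of −0.03 (adjusted p = 0.484).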

How the results depend on the processing

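Under all 21 alternatives to the edgeR fit 0 of the 5 genes were called; the smallest adjusted p was 0.0735 and the smallest unadjusted p 0.0240, and 3 settings gave a member an unadjusted p under 0.05. The 155 calls over all genes became 138 to 152 with a library left out, 116 to 189 over all settings. Table totals gave 127 higher and 62 lower, or 67.2% higher against 42.6%, and moved Apoe to 0.023, Capns1 to 0.017, Dpp9 to 0.027 and Npepps to 0.018 (log2 fold change), all above 0. Keeping only genes at 5 TPM or more gave Serpinf1 −0.00046.

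Leaving out each library in turn, the log2 fold change ran from −0.0027 to 0.018 for Mmp14, −0.19 to −0.072 for Mmp11, 0.015 to 0.059 for Fap, −0.079 to 0.0018 for Timp1, −0.027 to 0.020 for Serpinf1, −0.050 to 0.0051 for Apoe, −0.0091 to 0.033 for Csnk1g2, −0.029 to 0.0055 for Dpp9, −0.16 to 0.089 for Hpn and −0.043 to 0.059 for Tmem143. Relative length ran from −0.0049 to 0.00043 for Mmp14, −0.022 to 0.019 for Mmp11, 0.0084 to 0.049 for Fap, −0.0027 to 0.0032 for Timp1 and −0.060 to −0.029 for Serpinf1. With genes of 10 counts or more it was 0.0048 for Mmp14 and 0.0068 for Timp1. The cause was not tested.

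With a replicate block 168 genes were called, and Mmp11 was at −0.15 (adjusted p = 0.176). Same-numbered libraries correlated at −0.0031 to 0.13, and for 2 of 6 the best match was the same number, and no label says what a number stands for, so the numbers were not read as pairs. The Mmp14 to Timp1 difference stayed above 0 in 14 alternatives (0.019 to 0.092; exact permutation p 0.108 to 0.766). Replicates differed by more than counting noise (chi-square per degree of freedom 2.27 to 11.9 in 30 pairs). Of 730 alternative values for the 35 other named genes, 697 kept direction and side of the threshold, 14 lost a call (Ncstn and Itgb2), 2 gained one (Rps6ka1) and 17 changed sign.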
